A study of Mus musculus with 16 samples.

Results

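The NF-kB and IkB families comprise 10 genes here: Nfkb1, Nfkb2, Rel, Rela and Relb, which encode the subunits of the transcription factor NF-kB, and Nfkbia, Nfkbib, Nfkbie, Nfkbiz and Bcl3, which encode its inhibitors and nuclear partners. They were taken by gene symbol from 55450 annotated genes of mouse build GRCm38 (mm10). Chromatin accessibility was measured by ATAC-seq, in which a transposase cuts and tags DNA that is not covered by nucleosomes. When the peak lists of 8 libraries were joined, 24 of 16566 combined regions lay at these genes, 12 of them promoter regions of 9326 in all. A region counted as a promoter when its centre fell between 1000 bp before and 100 bp after the start of an annotated transcript. The other 12 regions had their centre elsewhere in the gene or within 10000 bp of it.

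Splenic B cells were isolated from mice by magnetic depletion of CD43-bearing cells and cultured with LPS (10 µg/mL) and IL-4 (20 ng/mL). Of the libraries, 4 were labelled Brg1 fl/+ and 4 Brg1 fl/fl, all CD23Cre +/-, each from 50000 cells. Brg1, encoded by Smarca4, is the ATPase of the SWI/SNF chromatin remodeller, and CD23-Cre acts in mature B cells, so the Brg1 fl/+ cells carry the recombinase and 1 floxed allele as well. The sample labels give 72 hours of activation and the design text of the series 96 hours for these libraries. The study's ATAC-seq methods also give the longer time, as 4 days. The number of mice behind the libraries is not given in the sources used here, and the study's methods give an age range for all its mice together but none for these libraries, so p-values measure the spread between libraries, which may be partly technical. Peak lists do not measure Brg1 itself, and the deletion was not checked here.

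NF-kB works as dimers that are held in the cytoplasm by IkB proteins in resting cells. Signals through the B cell receptor, Toll-like receptors or CD40 activate kinases that mark IkB for degradation, and the freed dimers bind κB sites in DNA. The family is under its own control: several of its genes, Nfkbia above all, are textbook targets of NF-kB. In B cells, Rel and the other subunits are known for roles in activation, proliferation and survival.

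κB consensus matches were frequent in the open regions of these genes. The consensus of 10 bases, searched on both strands with overlapping matches kept apart, was present within 300 bases centred on the summit in 7 of 12 family promoters, against 6.02% of 9324 promoters. It was present in 8 of 12 other family regions, against 11.9% of 7188 regions that were no gene's promoter. The 12 include promoters of the neighbouring genes Clasrp and Slc35b2. Over whole regions, 18 of 24 family regions held a match, against 13.5% of 16512, and family regions held 2.34 matches per kb against 0.358. These shares are a description of the sequences and not a record of bound sites. Of the other motifs searched in the same window of promoters, the SP motif GGGCGG was present in 11 of 12 and in 75.1% of all promoters. The NF-Y motif CCAAT was present in 3 of 12 and in 39.1% of all, while the ETS motif CCGGAAG and the AP-1 motif TGANTCA were each present in 1 of 12, against 21.4% and 3.29%. The E-box CACGTG was present in 0 of 12 and in 11.5% of all.

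**Figure D1:**
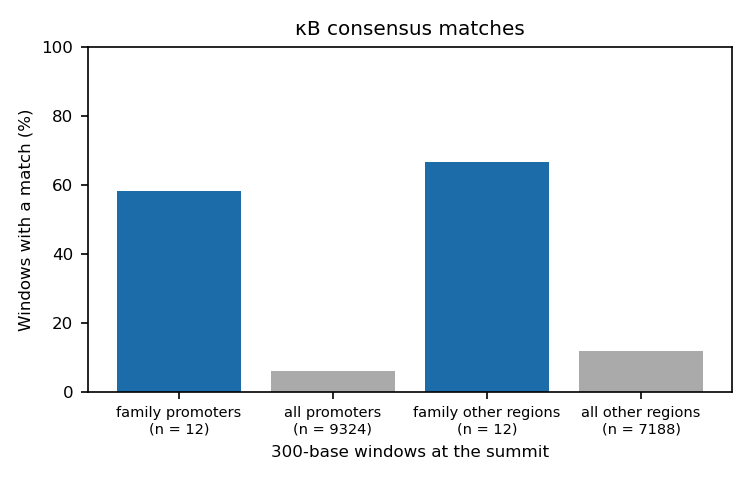
Percent of 300-base windows centred on the summit that held at least 1 match to the κB consensus, with the number of windows under each bar. The bars stand at 58.3% for the 12 family promoters, above 6.02% for all promoters. They stand at 66.7% for the 12 other family regions, above 11.9% for all regions that are no gene's promoter.

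For each member except Rel, whose matches are printed with its upstream sequence, the match nearest to the summit of its promoter region is shown with 10 bases on each side, in the direction in which the consensus reads, to let the sites be compared. Capitals mark the match, coordinates are of GRCm38, and the position is that of the middle of the match relative to the gene start.
Nfkb1 at +35, chr3:135691497-135691526, minus strand: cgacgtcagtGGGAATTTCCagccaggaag
Nfkb2 at +382, chr19:46304688-46304717, plus strand: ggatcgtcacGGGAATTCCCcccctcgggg
Rela at +419, chr19:5637888-5637917, minus strand: gcggggagggGGGAGATTCCgccgcaggcc
Relb at −20, chr7:19629443-19629472, minus strand: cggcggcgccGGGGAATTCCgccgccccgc
Nfkbia at +685, chr12:55491947-55491976, plus strand: cagccgcccaGGGACTTTCCgtgccccacc
Nfkbib at +1000, chr7:28766497-28766526, minus strand: ggggcgtgttGGGGAATTCCcgatagggcg
Nfkbie at −105, chr17:45555584-45555613, plus strand: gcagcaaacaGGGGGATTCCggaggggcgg
Nfkbiz at +34, chr16:55838850-55838879, minus strand: tttttggcctGGGAATTTCCagcgtgtgga
Bcl3 at +21, chr7:19822734-19822763, plus strand: gccgggcagcGGGACTTCCCctgccgccga

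The same 10 bases stood at Nfkb1 +35, at Nfkbiz +34 and at a further Nfkbia site at −25, shown next because it is the match nearest to the Nfkbia start. The matches printed for Relb and Nfkbib were likewise the same.
Nfkbia at −25, chr12:55492657-55492686, plus strand: gtcaggcgcgGGGAATTTCCaagccagtca

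The peak lists differed in length, which bears on every count of detected regions. The 8 lists held 6271 to 14614 peaks, the fragments under a median summit were 18 to 30, and 10 to 22 of the 24 family regions were listed per library. The longest list was Brg1 fl/+ 1, and the shortest were Brg1 fl/fl 2 and Brg1 fl/+ 3. Where a library lists no peak, the region stayed under its detection limit, which does not mean that it was closed. Among B cell marker promoters, Ms4a1 and Pax5 were listed in all 8 libraries, and Cd79b, Cd22 and Blk in none. No promoter of 8 myeloid, 4 NK cell or 4 erythroid marker genes was listed in any library, and of 8 T cell markers 1 was listed, in 1 library. Of 4 plasma cell markers, 0 to 3 were listed in a Brg1 fl/+ library and 2 in each Brg1 fl/fl library.

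Family promoters were mostly listed whatever the genotype. Promoter regions of Nfkb2, Rel, Rela, Relb, Nfkbia, Nfkbib and Nfkbiz were listed by all 8 libraries, which made 7 of 12, against 42.7% of all promoter regions. Those of Nfkb2, Rela, Relb, Nfkbia and Nfkbib had centres at +774, +124, +443, +361 and +899 from the gene start. They counted as promoters by other annotated starts. The Nfkb1 promoter was listed by 4 Brg1 fl/+ and 3 Brg1 fl/fl libraries. Nfkbie, which encodes IkB epsilon, had a peak at its start in 1 library of each genotype, with 19 and 18 fragments under the summit. Bcl3, an atypical IkB protein that works in the nucleus, had a peak at its main start in Brg1 fl/+ 1 alone, although 2 regions within the gene were listed by 6 and 7 libraries. Over all 24 regions, 12 had fewer Brg1 fl/fl libraries listing them than Brg1 fl/+ ones, against 47.2% of all regions, and 1 had more, against 16.7%. The first count fell to 6 of 17 without Brg1 fl/+ 1, where the share over all regions was 35.0%. With the same number of peaks taken from each list it was 5 of 15, against 23.2%.

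**Figure D2:**
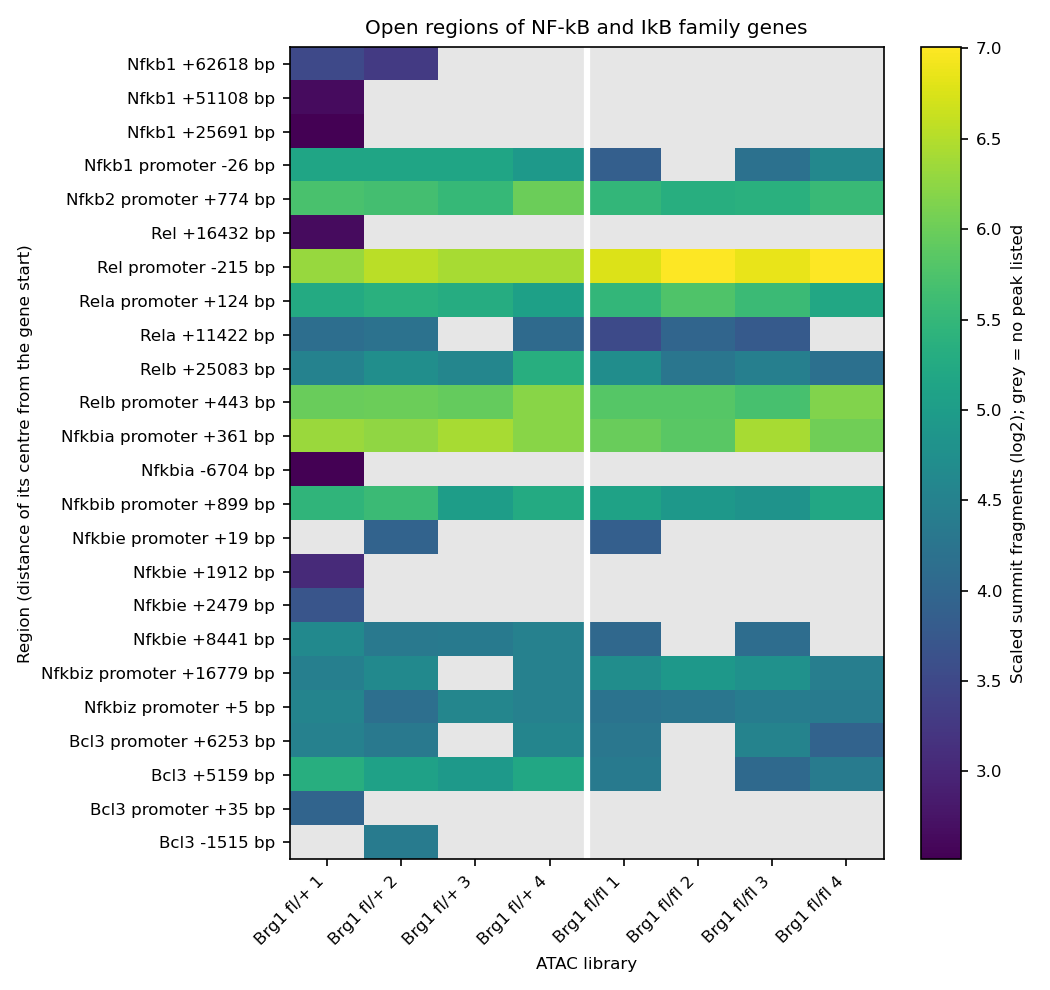
Log2 of scaled summit fragments (colour) for the 24 regions (rows, with the distance of the centre from the gene start in bp) in the 8 libraries (columns). Grey marks no listed peak. The Rel promoter has the brightest row, and 7 promoter rows are filled in all 8 columns, while 7 rows are filled only in Brg1 fl/+ 1.

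The number of fragments under each summit was recovered from the deposited fold and −log10 p and divided by a factor for each library, the median ratio over regions listed in all 8. These scaled summit fragments are compared below. Differences are log2 values, Brg1 fl/fl minus Brg1 fl/+, tested with limma over all regions fitted. In the 4558 regions with 8 values, 8 of them of the family, the family's 1 call was higher in Brg1 fl/fl, against 6.52% of all regions called higher, and 0 of 8 were called lower, against 5.51%. At an unadjusted p under 0.05, limma gave 1 family region in each direction. The median difference was −0.19 over the 8 family regions and 0.00 over all. Dividing by the genome background of each library instead moved the median of all regions to −0.81 and made all 8 family regions lower in Brg1 fl/fl, so every direction given for a gene below is relative to the bulk of the regions. In the 6495 regions listed by at least 3 libraries of each genotype, an alternative with missing values left missing, 13 belonged to the family: 1 was called higher, against 5.93% of all, and 2 lower, against 6.44%. Their median was −0.24, against −0.03 over all.

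Rel had the highest mean of scaled summit fragments of the family in both genotypes. It encodes c-Rel, the subunit best known from lymphocytes, and its promoter region lay at chr11:23770800-23771569, with the centre at −215 from the start. The Brg1 fl/+ libraries gave 79.9, 93.7, 85.3 and 85.2 scaled fragments, and the Brg1 fl/fl libraries 109.5, 128.5, 115.5 and 128.7. The groups did not overlap, with means of 86.0 ± 5.68 and 120.6 ± 9.60 (SD, n = 4 each). Here and below, groups without overlap are a description, given without the share over all fitted regions. The difference was 0.49 (SE 0.11, 95% interval 0.27 to 0.70, adjusted p = 0.0022 by limma), or 1.40-fold. More cells with an open promoter and a more open promoter per cell cannot be told apart in such bulk libraries. Among the peaks of its own list, ordered by q, the Rel promoter stood 2.19% to 8.44% from the top of the Brg1 fl/+ lists, and 0.91% to 1.52% from the top of the others. It was called higher with each library left out in turn and under the other alternatives except 2: the deposited fold with no further scaling gave 0.31 (adjusted p = 0.095), and genome background scaling turned the sign, to −0.32 (adjusted p = 0.029). Adjusted p ran from 0.0016 to 0.095 over the alternatives.

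The stretch of 300 bases directly upstream of the Rel start, chr11:23770971-23771270 of GRCm38, is printed on the minus strand, the strand of the gene, because it carries the summits of the 4 Brg1 fl/fl libraries. Those of the 4 Brg1 fl/+ libraries lie just upstream of it. Capitals mark a pair of κB matches that overlap by all but 1 base, at −87 and −86, and 75.7% of the bases are G or C.
Rel upstream: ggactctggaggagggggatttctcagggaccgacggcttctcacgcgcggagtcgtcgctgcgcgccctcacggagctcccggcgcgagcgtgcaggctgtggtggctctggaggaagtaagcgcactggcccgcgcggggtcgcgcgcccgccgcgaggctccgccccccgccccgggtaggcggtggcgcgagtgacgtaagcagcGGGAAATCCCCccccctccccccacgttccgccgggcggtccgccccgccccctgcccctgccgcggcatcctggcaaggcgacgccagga

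Nfkb1 encodes a precursor that is processed to a DNA-binding subunit of NF-kB. Its promoter region, chr3:135691300-135691846, had its centre at −26. It had 35.8, 35.5, 35.8 and 30.3 scaled fragments in Brg1 fl/+ and 14.7, 18.3 and 24.5 in Brg1 fl/fl replicates 1, 3 and 4, while replicate 2 listed no peak. Each Brg1 fl/fl value lay below each Brg1 fl/+ value, with means of 34.4 ± 2.73 (SD, n = 4) and 19.2 ± 4.94 (SD, n = 3). The difference was −0.87 (SE 0.20, 95% interval −1.27 to −0.47, adjusted p = 0.0027 by limma, Brg1 fl/fl 2 missing), or 1.83-fold lower. It passed the threshold in all 13 other fits of these regions, with adjusted p of 3e-07 to 0.046, and its size was smallest, −0.56, with the deposited fold scaled by the median ratio. The fit without Brg1 fl/fl 2 lost no value of this region and left the difference at −0.87. Genome background scaling called 5806 of all 6495 regions, so these fits add little to the count. In replicate 2 the lowest listed summit of the library corresponded to 10.6 scaled fragments. Introns 3 and 6 of Nfkb1 held 3 further regions, listed by 1 or 2 Brg1 fl/+ libraries with 11 to 22 fragments. Scaled, these were 5.7 to 11.4. None of the 3 was listed in Brg1 fl/fl, where the lowest listed summits corresponded to 6.5 to 10.6 scaled fragments. Their absence there therefore does not show a difference.

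Bcl3 had a region of 527 bp in its second intron, chr7:19817348-19817874, with the centre at +5159. Another gene model, Gm16174, also covers it. Scaled fragments were 40.5, 33.9, 30.7 and 37.0 in Brg1 fl/+ and 20.4, 16.5 and 20.9 in Brg1 fl/fl replicates 1, 3 and 4, with no peak listed in replicate 2. The groups did not overlap, with means of 35.5 ± 4.18 (SD, n = 4) and 19.3 ± 2.40 (SD, n = 3). The difference was −0.88 (SE 0.19, 95% interval −1.27 to −0.50, adjusted p = 0.0016 by limma, Brg1 fl/fl 2 missing), or 1.84-fold lower. It passed the threshold in all 13 other fits, with adjusted p of 1.9e-07 to 0.045. Here too the fit without Brg1 fl/fl 2 lost no value and left the difference at −0.88, and genome background scaling called most regions. The neighbouring region at +6253, which is also a promoter of Gm16174, was listed by 3 libraries of each genotype, with a difference of −0.20 (SE 0.23, adjusted p = 0.63 by limma). Whether the 2 regions differed from each other was not tested.

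The 200 bases around the summit of the intronic Bcl3 region, chr7:19817503-19817702 of GRCm38, are printed on the minus strand, that of the gene. The κB match in capitals, at +5135, has its middle 31 bases from the summit.
Bcl3 intron: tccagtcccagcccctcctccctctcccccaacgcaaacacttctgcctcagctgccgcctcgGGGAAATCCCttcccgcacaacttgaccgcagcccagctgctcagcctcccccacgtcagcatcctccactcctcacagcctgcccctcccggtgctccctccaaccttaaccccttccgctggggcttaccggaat

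**Figure D3:**
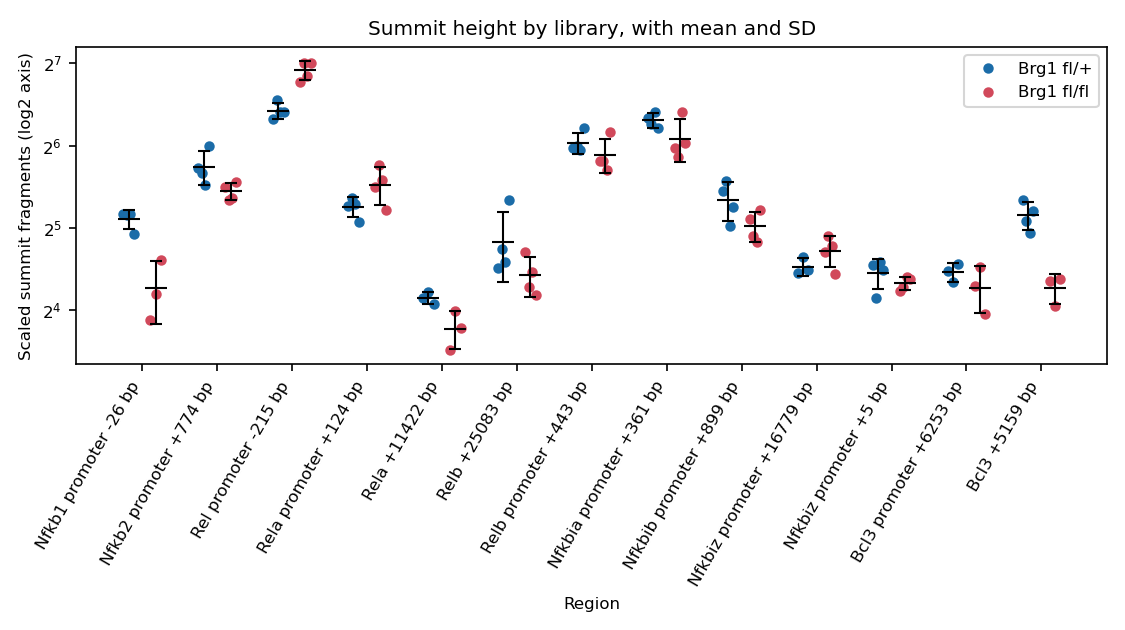
Scaled summit fragments (log2 axis) of the 13 family regions listed by at least 3 libraries of each genotype. Each point is a library, with the mean and SD in black. On this scale the Rel promoter lies above Brg1 fl/+ in all 4 Brg1 fl/fl libraries. With genome background scaling the Rel difference is −0.32. The Nfkb1 promoter and the Bcl3 region at +5159 lie below Brg1 fl/+ in the 3 Brg1 fl/fl libraries that list them. Their differences are negative with both scalings.

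The other subunits gave smaller differences that did not pass the threshold. Nfkb2, whose product is processed in the non-canonical pathway, had a wide promoter region of 1566 bp, with 46.1 to 63.9 scaled fragments in Brg1 fl/+ libraries, and in Brg1 fl/fl ones 40.5 to 47.1. Its difference was −0.29 (SE 0.14, adjusted p = 0.17 by limma), with a 95% interval of −0.57 to −0.01. Rela, the subunit with the main activation domain of the canonical dimer, had 33.6 to 41.2 and 37.2 to 54.6 at its promoter. Its difference of 0.26 (SE 0.15, adjusted p = 0.26) turned to −0.11 with the deposited fold. A Rela region lay past the 3′ end of the gene, at +11422. It had 16.8 to 18.6 in 3 Brg1 fl/+ libraries and 11.4 to 15.8 in 3 Brg1 fl/fl ones, without overlap. Its difference of −0.38 had an interval of −0.90 to 0.14 (adjusted p = 0.36 by limma) and was not called. With the deposited fold that difference was −0.81 and passed the threshold (adjusted p = 0.043), though not with the fold scaled by the median ratio (−0.55, adjusted p = 0.093). Relb, the partner of the processed Nfkb2 product, had 61.4 to 74.0 and 52.3 to 71.6 at its promoter. Its difference was −0.15 (SE 0.13, adjusted p = 0.47), and it turned to 0.12 with the deposited fold scaled by the median ratio. A region at +25083, which is the promoter of the neighbouring gene Clasrp, had a difference of −0.38 (SE 0.20, adjusted p = 0.22).

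Among the inhibitors, Nfkbia encodes IkB alpha, which returns NF-kB to the cytoplasm. Its promoter region had the next highest mean of the family after Rel, with 80.9, 76.7, 85.3 and 74.0 scaled fragments in Brg1 fl/+ and 62.9, 58.1, 85.3 and 65.3 in Brg1 fl/fl. Replicate 3 of Brg1 fl/fl lay with the Brg1 fl/+ libraries, so the groups overlapped. The difference was −0.24 (SE 0.12, 95% interval −0.48 to 0.01, adjusted p = 0.21 by limma). Nfkbib, which encodes IkB beta, shared its promoter region with Sirt2, had 32.4 to 47.6 and 28.4 to 37.2 scaled fragments and differed by −0.31 (SE 0.16, adjusted p = 0.22). Nfkbiz, which encodes the nuclear protein IkB zeta, had 2 promoter regions. The one at its main start had 17.8 to 23.9 and 18.8 to 21.1 scaled fragments (difference −0.12, SE 0.20, adjusted p = 0.76). The alternative start at +16779 was listed by 3 Brg1 fl/+ and all 4 Brg1 fl/fl libraries, the sole region listed by more Brg1 fl/fl libraries, with a difference of 0.18 (SE 0.20, adjusted p = 0.60) that turned to −0.13 with the deposited fold. Past the 3′ end of Nfkbie, the region at +8441, which is the promoter of Slc35b2, was listed by 4 Brg1 fl/+ and 2 Brg1 fl/fl libraries, with 20.2 to 24.9 and 16.3 to 17.4 scaled fragments and no fit.

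**Figure D4:**
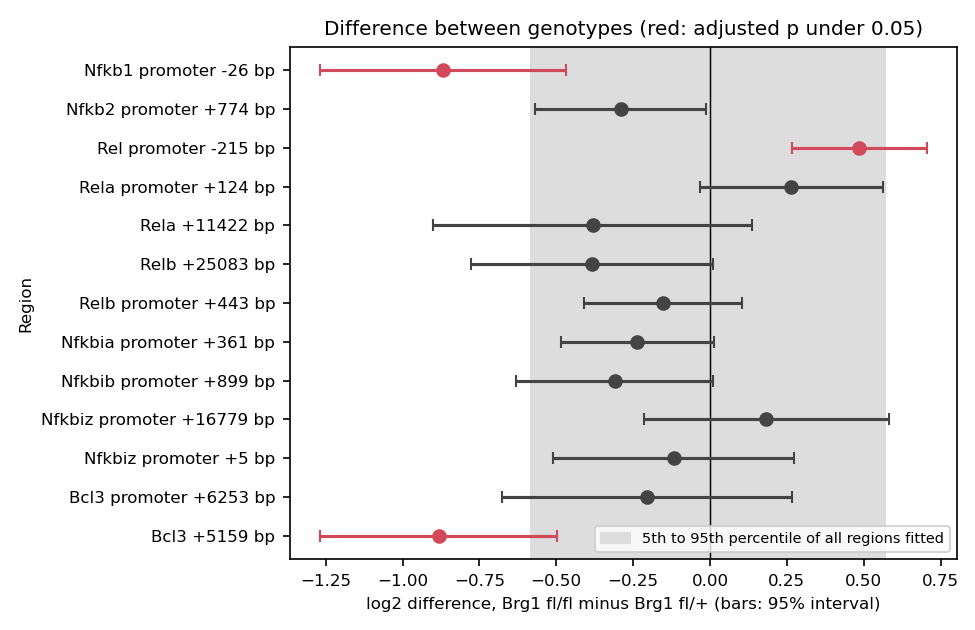
Log2 difference, Brg1 fl/fl minus Brg1 fl/+, with 95% intervals, for the 13 family regions listed by at least 3 libraries of each genotype. The grey band runs from the 5th to the 95th percentile of all 6495 regions fitted, −0.58 to 0.57. The Nfkb1 promoter and the Bcl3 region at +5159 lie below the band, and the Rel promoter, at 0.49 (−0.32 with genome background scaling), lies inside it.

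Positions of the summits were compared after they had been seen to differ at Rel. The Rel summit lay at −381, −358, −361 and −320 from the start in Brg1 fl/+, and at −226, −160, −263 and −293 in Brg1 fl/fl, so that each Brg1 fl/fl summit was nearer to the start and to the κB matches at −87 and −86, and farther from another match at −566. None of these matches lay within the 300 bases centred on the summit at −293, the one used for the motif counts. At the Relb promoter the summits lay at 750 to 777 and 545 to 689, also without overlap. The region at +25083 behaved likewise, with 24940 to 24986 and 25006 to 25068. At the 5 other family regions listed in all 8 libraries the positions of the genotypes overlapped. Of 4593 such regions, 6.92% had summit positions without overlap between genotypes. A summit is the single highest base of a peak, and over a broad region it can move with few fragments, so no test was made of these shifts.

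**Figure D5:**
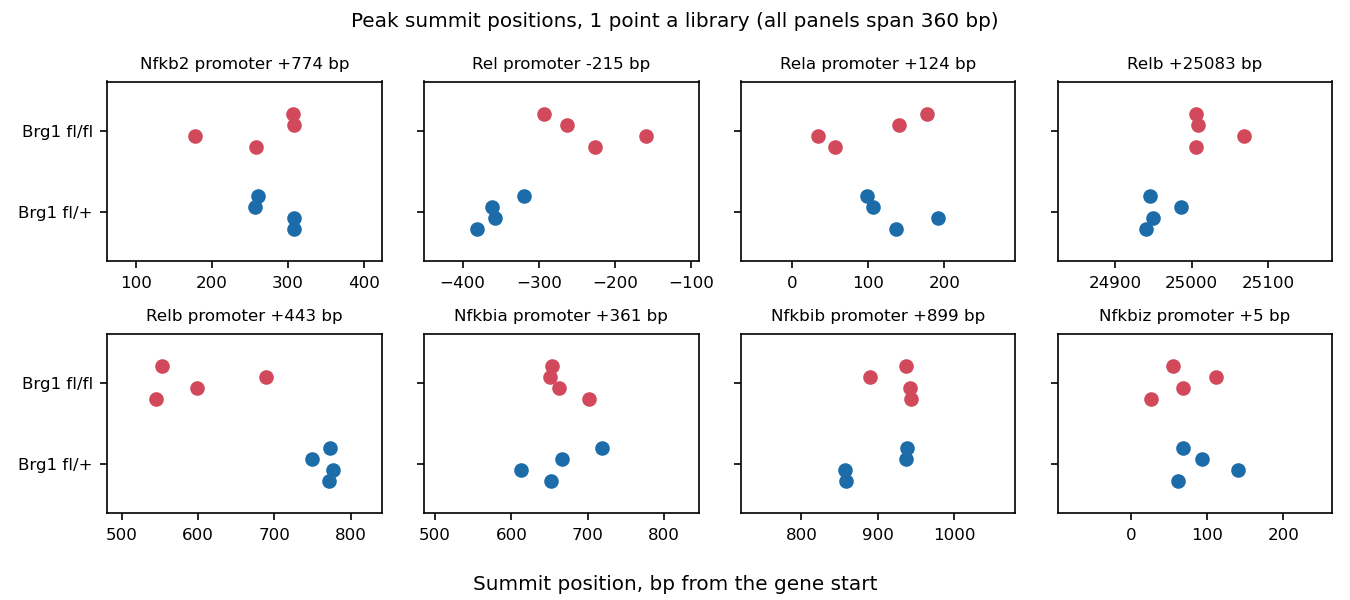
Position of the peak summit in bp from the gene start, 1 point a library, for the 8 family regions listed in all 8 libraries. Every panel spans 360 bp. Genotypes are apart at the Rel promoter and at both Relb regions and overlap in the other 5 panels.

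The promoters of other genes of the pathway were read from the same fit. Of 35 genes, 23 had a promoter region listed in all 8 libraries, 11 in some and 1, Traf1, in none. Of their 23 fitted regions 0 were called higher and 1 lower by limma, with 1 higher and 2 lower at an unadjusted p under 0.05, and their median difference was 0.02, beside 6.52% called higher and 5.51% called lower of all regions. The called one was Btrc, the F-box protein that recognises phosphorylated IkB for degradation. Its promoter, shared with 1700016H03Rik, had 50.3, 54.1, 59.7 and 50.4 scaled fragments in Brg1 fl/+ and 31.9, 37.0, 34.8 and 41.7 in Brg1 fl/fl, without overlap. It differed by −0.56 (SE 0.14, adjusted p = 0.0071 by limma), a call that held in all 16 alternatives. Of these, genome background scaling called 4165 of all 4558 regions. Among the 12 genes of the ubiquitin system all had a promoter in 8 libraries, and Cyld, a deubiquitinase that restrains the pathway, had the best ranked one (difference −0.08, adjusted p = 0.72). Tnfaip3, which encodes the inhibitor A20, had a second start listed by 4 Brg1 fl/+ and 2 Brg1 fl/fl libraries, while its main promoter differed by 0.14 (adjusted p = 0.58).

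Of 7 kinase genes, 3 had a promoter in all 8 libraries: Map3k14, the kinase of the non-canonical pathway (difference 0.01, adjusted p = 0.96), Map3k7 and Tbk1. Ikbkg, the regulatory subunit of the IkB kinase, had a promoter shared with G6pdx in 3 and 4 libraries, and the catalytic subunits Chuk and Ikbkb were listed in 1 library each, as was Ikbke. Of 10 adaptor genes, 6 had a promoter in 8 libraries, with Traf3 the best ranked (difference 0.04, adjusted p = 0.90). Traf6, Tab2 and Tradd were listed in some. Malt1, the protease of the CBM complex that links the antigen receptor to the IkB kinase, was the best ranked of the CBM genes (difference 0.14, adjusted p = 0.48). Bcl10 was also listed in all 8, while Prkcb was listed by 4 and 3 libraries. The inhibitor relatives Nfkbid and Nfkbil1 were listed by 3 and 3, and by 3 and 1.

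Of 20 genes known as NF-kB targets, 7 had a promoter in all 8 libraries, 8 in some and 5 (Cd80, Tnf, Lta, Ltb and Tnfrsf4) in none. Among 7 regions fitted 1 was called higher and 1 lower, beside the same 6.52% and 5.51% of all regions, and their median difference was −0.02. Irf1, a transcription factor of the interferon response, was higher in Brg1 fl/fl by 0.40 (SE 0.13, adjusted p = 0.046), with 42.0 to 61.4 scaled fragments in Brg1 fl/+ libraries and an overlapping 55.0 to 75.7 in Brg1 fl/fl ones. That call was lost in most alternatives, among them the deposited fold (0.01, adjusted p = 0.95), the replicate block (adjusted p = 0.064) and 6 of 8 fits with a library left out (all but those without Brg1 fl/+ 3 or Brg1 fl/fl 3), and its sign turned with genome background scaling (−0.41). Gadd45b, a stress gene that NF-kB induces, fell by 0.42 (SE 0.12, adjusted p = 0.015), with 87.2 to 115.5 and 67.0 to 84.5. It was called in 11 of 16 alternatives and not with the deposited fold (−0.29, adjusted p = 0.17), with that fold scaled by the median ratio (−0.12), with no trend (adjusted p = 0.074), or without Brg1 fl/+ 4 (−0.33, adjusted p = 0.076) or Brg1 fl/fl 1 (−0.39, adjusted p = 0.060). Bcl2l1, a survival gene, had the best ranked target promoter (difference −0.02, adjusted p = 0.95). The Fas promoter was listed by 4 Brg1 fl/+ and 1 Brg1 fl/fl libraries and Junb by 4 and 3. Icam1, Irf4, Bcl2a1b, Cd83, Cd86 and Ccr7 were listed in 1 to 5 libraries.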

How the data were processed

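ATAC-seq libraries of activated B cells, 4 Brg1 fl/+ and 4 Brg1 fl/fl, were grouped by their labels, and the 10 members and all gene lists were chosen with earlier results of these data known. For these lists the authors used Bowtie2 (mm10) and, library by library, MACS2. Versions, options, duplicate handling and any transposase shift are not given in the sources used here. The deposited lists give the fold of each summit over local background (a ratio), the deposited −log10 p and −log10 q, and the summit position. The authors' coverage, their DESeq2 comparison and the RNA-seq libraries were not analysed here.

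Overlapping or touching peaks were joined into regions and placed with GENCODE transcripts of GRCm38, and a region was listed by a library with at least 1 bp of peak. Fragments k and expected background were solved from fold, taken as (k + 1) over (background + 1), and the Poisson p, to within 0.002 of the deposited −log10 p, for 99.7% to 99.8% of peaks. Fragments may include PCR copies, so errors cover the spread between libraries only. Log2 fragments, scaled by the median ratio over shared regions, were tested with limma 3.58.1 (mean-variance trend, genotype only, Benjamini-Hochberg adjustment over all regions fitted, threshold 0.05), since peak lists hold no counts for a count model. The lowest −log10 q was 1.31. Fits and recovery were also run on simulated data. The simulated folds used the formula that the recovery solves, and the simulated fits had no missing values. These runs check the calculation and not its assumptions.

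Named were all promoter regions of the members, other regions called, differing by 2 or more libraries or best ranked for a member, and, of the pathway lists, genes called, genes not listed in all 8 and the best ranked of each list; some list members are not reported here. A Rel region at +16432, an Nfkbia region at −6704, the Nfkbie regions at +1912 and +2479 and the Bcl3 region at −1515 were listed by 1 Brg1 fl/+ library each. Sequences came from the GRCm38 assembly of RefSeq, read with samtools 1.23.1. Alternatives were the deposited fold, scaling by genome background or by promoters, regions in at least 3 libraries of each genotype, no trend, the replicate number as a block, libraries averaged or joined in pairs, stricter q, equal list lengths, 50% of a region covered, other promoter rules and each library left out. The deposited fold scaled by the median ratio and the repeats for regions in at least 3 libraries and for the called pathway promoters were added after seeing the data. Same-numbered libraries did not deviate together (correlations −0.061 to −0.0077), so the numbers were not taken as pairs. Deviations were taken from the mean of the 4 libraries of a genotype, which by itself makes correlations within a genotype negative. Within Brg1 fl/+ they were 0.092 between libraries 1 and 2, and −0.21 between libraries 3 and 4. Between these pairs they were −0.53 to −0.41. Within Brg1 fl/fl the correlations ran from −0.45 to −0.23. The libraries averaged or joined in pairs were 1 with 2 and 3 with 4. For pairs of libraries, the spread of summit fragments was divided by that of counting alone, so 1 means no further spread. It was 0.81 to 0.89 within Brg1 fl/fl and 0.77 to 1.23 within Brg1 fl/+. Same-genotype libraries thus differed by little more than counting, or by less. Whether some libraries share a source was not tested.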

Additional observations from a re-analysis of the deposited data

Results flagged for a closer look

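The scaled summit fragments of the Nfkb1 promoter in Brg1 fl/+ replicate 4, at 30.3, stood apart from the 3 other Brg1 fl/+ libraries, which lay between 35.5 and 35.8. The gap to the nearest of them was 0.945 of the range of the group, above Dixon's 95% critical value for 4 samples. This was 1 of 20 groups of 4 examined, and chance flags about 1 in 20. The value remained above all 3 Brg1 fl/fl values, and the Nfkb1 difference passed the threshold without this library.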

How the results depend on the processing

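Calls over all regions (548, of which 251 lower in Brg1 fl/fl) were 153 (148 lower) with the deposited fold, 260 with that fold scaled by the median ratio, 4165 (4149 lower) with genome background scaling, whose median difference was −0.81, and 341 with libraries averaged in pairs. They ranged from 314 to 559 with a library left out. Family calls (1) were 0 with the deposited fold (1 higher and 2 lower at an unadjusted p under 0.05 by limma), 8 with genome background scaling, 3 in regions of at least 3 libraries of each genotype, and 1 to 3 with a library left out, the 3 being Rel, Nfkb1 and the Bcl3 intron without Brg1 fl/fl 2. With the replicate block there were 479 calls, and Rel kept its difference of 0.49 (adjusted p = 0.0046). The Rel difference was 0.31 with the deposited fold and −0.32 with genome background scaling, which is 0.48 above the median of all regions in both. Signs turned for the Rela promoter (−0.11 with the deposited fold, −0.55 with genome background), the Nfkbiz start at +16779 (−0.13 and −0.72) and, with the fold scaled by the median ratio, for Relb (0.12) and Bcl3 at +6253 (0.074). Why was not tested.

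Family regions listed by fewer Brg1 fl/fl libraries (12) were 5 of 15 with equal list lengths, against 23.2% of all regions. With a library left out they were 6 to 15, against 35.0% to 54.8%. Those listed by more (1) were 2 of 15 with equal list lengths, against 24.8% of all regions, and 7 of 24 with 50% of the region covered, against 26.6%. They were 0 with libraries joined in pairs, against 13.5%, and 0 to 4 with a library left out, against 14.8% to 30.5%. Promoters listed in all 8 (7) were 3 of 12 with 50% covered, where 1945 of all 9326 promoters were. Of 270 alternative values in all, 230 kept direction and side of the threshold or stayed within 1.5 times. Of these, 162 were differences of family regions other than the Rel promoter, mostly of regions called in neither fit. For such differences a further 6 turned sign and 9 gained a call. The other 68 of the 230 were counts or the Rel difference, for which 23 counts moved further, 1 value turned sign and 1 lost its call.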
